A study of Mus musculus with 12 samples.

Results

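Levels of 10 genes of the transforming growth factor beta (TGF-beta) pathway were followed over 4 groups of mouse RNA-seq libraries. The genes were chosen by symbol: the ligand gene Tgfb1, the receptor genes Tgfbr1, Tgfbr2 and Tgfbr3, the SMAD genes Smad2, Smad3, Smad4 and Smad7, and the co-repressor genes Ski and Skil. They are 10 of the 33100 gene rows of the count table, and all 10 were among the 16831 genes with enough reads to be tested. The samples were labelled as natural killer (NK) cells and were sorted from tumor and from spleen, per the labels and the design text of the series. The 4 groups of 3 libraries each were tumor cKO, tumor WT, spleen cKO and spleen WT. Here cKO stands for a conditional knockout of 1 gene and WT for control mice. The promoter that drove the deletion, the kind of tumor, the strain and the age of the mice were not given in the sources used here, and neither was the gate of the sort. The deleted gene is not reported here, and the genotype of the libraries was taken from the labels alone. Nothing in the labels ties a library to an animal of its own. The p-values therefore reflect the spread among these samples, which may be technical.

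TGF-beta is secreted in a latent form and, once released, binds the type II receptor TGFBR2, which then recruits and phosphorylates the type I receptor TGFBR1. TGFBR1 phosphorylates the receptor SMADs, SMAD2 and SMAD3, which join the common partner SMAD4 and enter the nucleus to regulate genes. SMAD7 blocks the receptor, SKI and SKIL (SnoN) hold back SMAD complexes on DNA, and the pathway is known to restrain proliferation and cytotoxic functions of NK cells.

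The lineage markers differed strongly between the tissues. The summed level of 12 NK cell markers was 69.6 to 89.5 CPM (counts scaled to a common library size) in tumor cKO, 88.4 to 303 CPM in tumor WT, 1565 to 1908 CPM in spleen cKO, with 1501 to 1941 CPM in spleen WT. Ncr1, the NK cell receptor NKp46, was at 0.421 to 0.769 CPM in tumor cKO, 1.63 to 1.86 CPM in tumor WT, 90.8 to 154 CPM in spleen cKO, with 128 to 204 CPM in spleen WT. Klrb1c, the gene of the NK1.1 surface antigen, ranged over 1.01 to 2.13 CPM in tumor cKO, 1.72 to 8.08 CPM in tumor WT, 113 to 170 CPM for spleen cKO and 113 to 154 CPM for spleen WT. The defining markers of the labelled cell type were thus abundant in the spleen libraries and close to absent in the tumor libraries.

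Other lineages were present in both tissues. The summed level of 8 B-cell markers was 17.04 to 41.0 CPM in tumor cKO, 13.02 to 72.0 CPM in tumor WT, 2175 to 2608 CPM in spleen cKO, with 2485 to 2814 CPM in spleen WT. That of 11 macrophage markers was 769 to 2066 CPM in tumor cKO, 5382 to 12700 CPM in tumor WT, 132.5 to 192 CPM in spleen cKO, with 41.4 to 75.1 CPM in spleen WT. No NK cell, B-cell, T-cell or macrophage marker was without reads in a whole group. In such bulk samples, fewer cells of a type and less RNA per cell cannot be told apart. Total counts were 15765906 to 24832976 in tumor cKO, 18518070 to 37118494 in tumor WT, 9542329 to 13753737 in spleen cKO and 10496256 to 13105059 in spleen WT. Tumor WT replicate 2 and tumor cKO replicate 3 stood apart, with the macrophage lysozyme gene Lyz2 at 6629 CPM, the highest value of all libraries, and at 522 CPM, the lowest of the tumor libraries.

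Of the 10 genes, 5 had a RefSeq promoter (GRCm38.p6): Tgfb1, Tgfbr1, Tgfbr2, Smad3 and Ski. The 250 bases before the start of Tgfbr2 (chr9:116175364-116175613, minus strand) and of Smad3 (chr9:63757995-63758244, minus strand) are shown because these are the signalling genes that were lower in tumor than in spleen in both genotypes. Capitals mark matches, on either strand, to the SMAD box CAGAC, the GC box GGGCGG and the AP-1 motif TGANTCA, none of which overlap here.
Tgfbr2: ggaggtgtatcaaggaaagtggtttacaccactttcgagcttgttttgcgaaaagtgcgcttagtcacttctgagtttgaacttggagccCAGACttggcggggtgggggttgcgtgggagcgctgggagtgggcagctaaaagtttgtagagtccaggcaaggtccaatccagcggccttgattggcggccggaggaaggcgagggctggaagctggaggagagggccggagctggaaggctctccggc
Smad3: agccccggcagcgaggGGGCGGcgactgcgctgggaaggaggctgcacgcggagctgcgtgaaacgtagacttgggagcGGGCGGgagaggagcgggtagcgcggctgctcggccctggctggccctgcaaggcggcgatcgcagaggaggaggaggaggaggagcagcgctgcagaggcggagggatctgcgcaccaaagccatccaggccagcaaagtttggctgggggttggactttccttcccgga
The Tgfbr2 window held 1 SMAD box and neither of the other motifs, and the Smad3 window held 2 GC boxes and neither of the other motifs. Among 32851 RefSeq promoter windows of the same 250 bases, 42.2% held a SMAD box, 32.7% a GC box and 6.75% an AP-1 motif. A match describes the letters only and is not a binding site.

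Tgfb1 encodes the main TGF-beta ligand of immune cells (chromosome 7, 25687002 to 25705077, GRCm38). It was at 135, 112 and 94.7 CPM in tumor cKO replicates 1, 2 and 3, and at 259, 221 and 249 CPM in tumor WT. The spleen libraries had 98.7, 77.6 and 92.8 CPM in cKO and 96.0, 80.0 and 108 CPM in WT. All 3 tumor WT libraries lay above the other 9, which overlapped one another. Relative to tumor WT, Tgfb1 was lower in tumor cKO by a log2 fold change of -1.09 ± 0.154 (SE; edgeR quasi-likelihood F-test, Benjamini-Hochberg adjusted p = 0.000212). Tumor WT was above spleen WT by 1.36 ± 0.155 (edgeR adjusted p = 6.84e-06).

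In the cKO groups Tgfb1 differed between tumor and spleen by 0.34 ± 0.153 on the log2 scale, which missed the threshold of 0.05 (edgeR adjusted p = 0.0667). It passed without tumor cKO replicate 3 (0.47, adjusted p = 0.02) and without tumor WT replicate 2 (0.36, adjusted p = 0.0366), and also with size factors or the test of DESeq2, library totals alone or no filter on low counts.

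Tgfbr2 encodes the type II receptor that binds the ligand (chromosome 9, 116084293 to 116175360, minus strand). It was at 33.3, 29.8 and 22.8 CPM in tumor cKO and at 86.4, 105 and 78.2 CPM in tumor WT. It was at 172, 177 and 175 CPM in spleen cKO and at 182, 189 and 215 CPM in spleen WT. The 4 groups formed an order with no overlap, spleen WT highest, then spleen cKO, tumor WT and tumor cKO. The 2 spleen groups lay next to each other and did not differ by the test (log2 fold change -0.16 ± 0.146, 95% interval -0.48 to 0.16, edgeR adjusted p = 1).

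For Tgfbr2 the log2 fold change of tumor cKO against tumor WT was -1.65 ± 0.151 (edgeR adjusted p = 2.35e-05). Tumor against spleen gave -2.61 ± 0.156 in cKO (edgeR adjusted p = 3.21e-08) and -1.12 ± 0.148 in WT (edgeR adjusted p = 2.54e-05). Its call held in each of these comparisons in every fit tried, including each fit without 1 of the 12 libraries.

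Tgfbr1 encodes the type I receptor kinase (chromosome 4, 47353222 to 47414931). It was at 18.4, 15.9 and 10.2 CPM in tumor cKO and at 26.2, 36.1 and 28.5 CPM in tumor WT. It was at 16.7, 11.1 and 9.52 CPM in spleen cKO and at 17.5, 12.05 and 14.0 CPM in spleen WT. As for the ligand gene, the tumor WT libraries lay above all others, and the other 3 groups overlapped.

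The Tgfbr1 log2 fold change was -1.03 ± 0.261 for tumor cKO against tumor WT (edgeR adjusted p = 0.00781) and 1.06 ± 0.264 for tumor WT against spleen WT (edgeR adjusted p = 0.00346). The call between the tumor groups was lost when tumor WT replicate 2 and tumor cKO replicate 3 were both left out (-0.66, adjusted p = 0.0543). Tumor cKO and spleen cKO differed by 0.25 ± 0.264, with a 95% interval of -0.32 to 0.82 (edgeR adjusted p = 0.431).

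Tgfbr3 encodes betaglycan, a co-receptor that presents ligand (chromosome 5, 107106570 to 107289629, minus strand), and it was the gene with the fewest reads. It had 76, 33 and 60 reads in tumor cKO and 13, 142 and 21 in tumor WT. It had 4, 13 and 12 reads in spleen cKO and 6, 11 and 4 in spleen WT. Tumor WT replicate 2 held most of the reads of its group. The row shares 297 exon bases with Gm43422 on the same strand, a model with at most 13 reads in a library, so its reads are uncertain to that extent.

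In CPM, Tgfbr3 averaged 2.52 ± 0.652 in tumor cKO, 2.01 ± 1.75 in tumor WT, 0.816 ± 0.506 in spleen cKO and 0.554 ± 0.241 in spleen WT (SD, n = 3 each). It was called higher in tumor WT than in spleen WT (log2 fold change 1.86 ± 0.707, edgeR adjusted p = 0.035), although the groups overlapped. The fold change was 0.86 without tumor WT replicate 2 (adjusted p = 0.295), 1.73 without spleen WT replicate 1 (adjusted p = 0.0999) and 1.66 without spleen WT replicate 3 (adjusted p = 0.103). The call was also lost in a fit of these 2 groups alone (0.0607) and with limma on log2(RPKM + 0.1) (0.108). Between the tumor groups it was 0.30 ± 0.636 (edgeR adjusted p = 0.74), and 1.32 without tumor WT replicate 2, -0.08 without tumor WT replicate 1, neither of which passed.

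**Figure D1:**
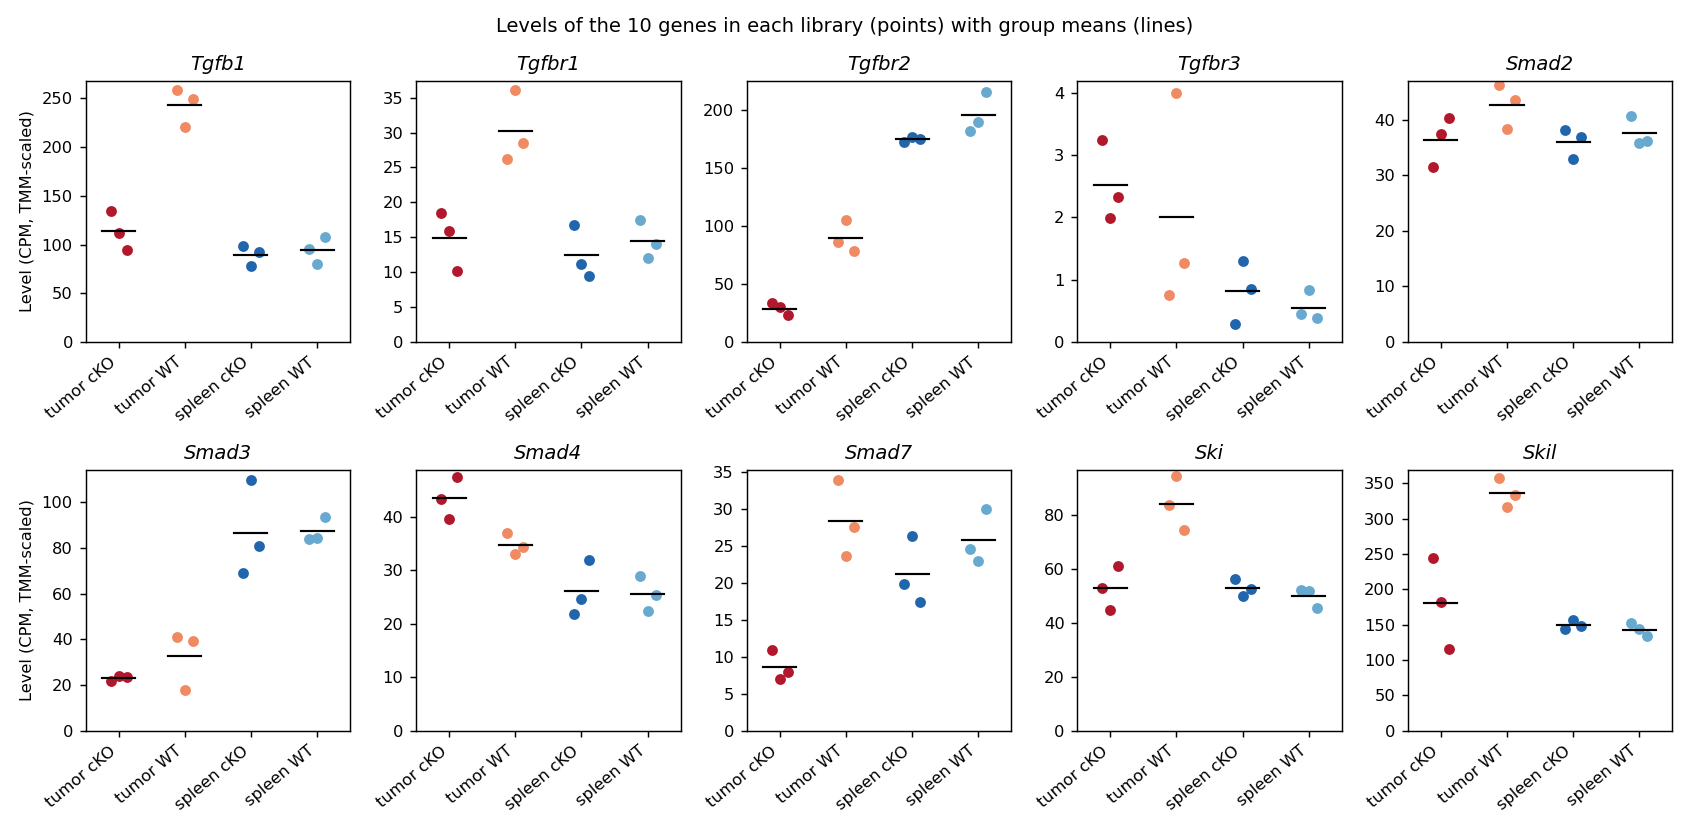
Level of each of the 10 genes in CPM (y axis, starting at 0) in each library (points) of tumor cKO, tumor WT, spleen cKO and spleen WT, with group means as lines. Tgfb1, Tgfbr1, Ski and Skil were highest in the 3 tumor WT libraries, Tgfbr2 and Smad3 in the spleen libraries, Smad7 was lowest in tumor cKO, and Smad2 was nearly level.

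The receptor SMADs behaved differently from each other. Smad2, which like Smad4 and Smad7 lies on chromosome 18, was at 31.5, 37.5 and 40.4 CPM in tumor cKO, 46.2, 38.4 and 43.5 CPM in tumor WT, 38.1, 33.0 and 36.9 CPM in spleen cKO and 40.7, 35.8 and 36.2 CPM in spleen WT. All 4 groups overlapped with their neighbours in order of level, and no comparison was called. The widest difference was between the tumor groups, at a log2 fold change of -0.23 ± 0.137 with a 95% interval of -0.52 to 0.07 (edgeR adjusted p = 0.207).

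Smad3 (chromosome 9, 63646767 to 63757994, minus strand) was at 21.8, 23.7 and 23.4 CPM in tumor cKO and at 41.2, 17.997 and 39.2 CPM in tumor WT. It was at 69.1, 110 and 80.8 CPM in spleen cKO and at 84.1, 84.3 and 93.5 CPM in spleen WT. Every tumor library lay below every spleen library, while the tumor groups overlapped through tumor WT replicate 2. Tumor against spleen gave a log2 fold change of -1.91 ± 0.265 in cKO (edgeR adjusted p = 5.09e-05) and -1.42 ± 0.260 in WT (edgeR adjusted p = 0.000458). Tumor cKO against tumor WT gave -0.51 ± 0.259 (edgeR adjusted p = 0.139), and -0.81 without tumor WT replicate 2, which passed (adjusted p = 0.00123). It also passed with no filter on low counts (-0.49, adjusted p = 0.0458).

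Smad4, the common partner of the receptor SMADs, was at 43.2, 39.5 and 47.5 CPM in tumor cKO and at 36.9, 33.0 and 34.3 CPM in tumor WT. It was at 21.8, 24.7 and 31.8 CPM in spleen cKO and at 29.0, 22.4 and 25.4 CPM in spleen WT. Its order was the reverse of that of Tgfbr2 by tissue: both tumor groups lay above both spleen groups without overlap, and tumor cKO lay above tumor WT. Tumor against spleen gave a log2 fold change of 0.73 ± 0.163 in cKO (edgeR adjusted p = 0.00169) and 0.44 ± 0.163 in WT (edgeR adjusted p = 0.0313).

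The Smad4 call in WT was lost without tumor WT replicate 1 (adjusted p = 0.0858), without spleen WT replicate 2 (0.128) or without spleen WT replicate 3 (0.0745). It was also lost with library totals alone (log2 fold change 0.30, adjusted p = 0.129) and with no filter on low counts (0.0502). Tumor cKO against tumor WT gave 0.32 ± 0.161 (edgeR adjusted p = 0.132), and 0.50 with library totals alone, which passed (adjusted p = 0.0252).

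Smad7, the inhibitory SMAD that is itself induced by TGF-beta, was at 10.9, 6.97 and 7.86 CPM in tumor cKO and at 33.9, 23.6 and 27.5 CPM in tumor WT. It was at 19.8, 26.3 and 17.4 CPM in spleen cKO and at 24.6, 22.9 and 30.0 CPM in spleen WT. Only the tumor cKO libraries stood apart, below all 9 others, which overlapped. Its log2 fold change was -1.72 ± 0.226 for tumor cKO against tumor WT (edgeR adjusted p = 0.000146). Tumor cKO was below spleen cKO by -1.29 ± 0.226 (edgeR adjusted p = 0.000279), and tumor WT against spleen WT gave 0.13 ± 0.219 with a 95% interval of -0.34 to 0.61 (edgeR adjusted p = 0.612).

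The co-repressor genes had the pattern of the ligand gene. Ski (chromosome 4, 155154075 to 155222592, minus strand) was at 52.9, 45.0 and 61.0 CPM in tumor cKO, 83.8, 94.4 and 74.4 CPM in tumor WT, 56.2, 50.01 and 52.7 CPM in spleen cKO and 52.3, 52.0 and 45.4 CPM in spleen WT. Tumor WT lay above the 3 other groups, which overlapped. The log2 fold change was -0.67 ± 0.138 for tumor cKO against tumor WT (edgeR adjusted p = 0.00231) and 0.76 ± 0.139 for tumor WT against spleen WT (edgeR adjusted p = 0.000401). Tumor cKO and spleen cKO had means of 52.97 and 52.98 CPM, and the 95% interval of their log2 fold change was -0.30 to 0.30.

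Skil (chromosome 3, 31095058 to 31122577), whose product SnoN is degraded on TGF-beta signalling and whose gene is then induced, was at 244, 182 and 116 CPM in tumor cKO and at 357, 317 and 334 CPM in tumor WT. It was at 144, 157 and 149 CPM in spleen cKO and at 152, 144 and 134 CPM in spleen WT. Tumor WT was again highest, and tumor cKO ranged from above to below the spleen levels, with replicate 3 the lowest of all 12 libraries. Tumor cKO against tumor WT gave a log2 fold change of -0.90 ± 0.196 (edgeR adjusted p = 0.00329) and tumor WT against spleen WT gave 1.23 ± 0.197 (edgeR adjusted p = 0.000136). Tumor cKO against spleen cKO gave 0.27 ± 0.195 (edgeR adjusted p = 0.247). It was 0.51 without tumor cKO replicate 3, which passed (adjusted p = 0.00519).

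Counted together, 6 of the 10 genes were lower in tumor cKO than in tumor WT (Tgfb1, Tgfbr1, Tgfbr2, Smad7, Ski and Skil), none was higher, and 4 were not called (Tgfbr3, Smad2, Smad3 and Smad4). Over all genes tested, 38% were called in this comparison, 21.6% lower and 16.4% higher. The tumor groups did not overlap for 7 of the 10 genes, against 50.3% of all genes. The median log2 fold change of the 10 genes was -0.78, against -0.12 over all genes. With library totals alone the median over all genes was 0.06 and the share of higher among called genes was 57.5%, against 43.1% with composition factors. With either scaling the same 6 genes were lower.

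The lineage markers moved between the same tumor groups. Of the 11 macrophage markers, 11 were lower in tumor cKO than in tumor WT, with a median log2 fold change of -2.72, and their summed level did not overlap between the groups. Of the 12 NK cell markers 10 were lower, but their summed level overlapped through tumor WT replicate 2, at 88.4 CPM. Of the 9 T-cell markers 5 were higher, with a summed level of 595 to 857 CPM in tumor cKO and 293 to 341 CPM in tumor WT. Neutrophil markers summed to 35.5 to 98.7 CPM in tumor cKO and 87.7 to 197 CPM in tumor WT, and 2 of the 6 tested were lower. Among the 7 fibroblast markers tested, 3 were lower and 1 was higher, and their sums overlapped. Dendritic cell markers summed to 15.8 to 24.9 CPM in tumor cKO and 53.2 to 57.4 CPM in tumor WT, and 2 of the 5 tested were lower. Erythroid and platelet markers summed to 22.7 to 47.9 CPM in tumor cKO and 198 to 218 CPM in tumor WT, and 2 of the 6 tested were lower. The endothelial sum, given further on, did not overlap between the tumor groups either, with 2 of 6 markers lower. Their part in the results for the 10 genes was not tested.

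In spleen, none of the 10 genes was called between cKO and WT by edgeR, none had an unadjusted p under 0.05, and the DESeq2 test called none. Over all genes, 0.0297% (5 genes) were called, and 784 genes had an unadjusted p under 0.05. The log2 fold changes of the 10 genes ran from -0.29 ± 0.221 for Smad7 to 0.52 ± 0.743 for Tgfbr3. The widest 95% interval was that of Tgfbr3, at -1.09 to 2.12, and those of Tgfb1, Tgfbr2, Smad2, Smad4, Ski and Skil lay within -0.48 and 0.49. The spleen groups did not overlap for 1 of the 10 genes, Tgfbr2, against 11.4% of all genes. Of the 12 NK cell markers none had an unadjusted p under 0.05 in spleen. Of the 11 macrophage markers edgeR called none between the spleen groups, 7 had an unadjusted p under 0.05, the DESeq2 test called 2, a fit with no filter on low counts called 8, and their median log2 fold change was 1.38. Of the 9 T-cell markers edgeR and the DESeq2 test called none, 5 had an unadjusted p under 0.05, the fit with no filter called 2, and their median was 0.56.

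**Figure D2:**
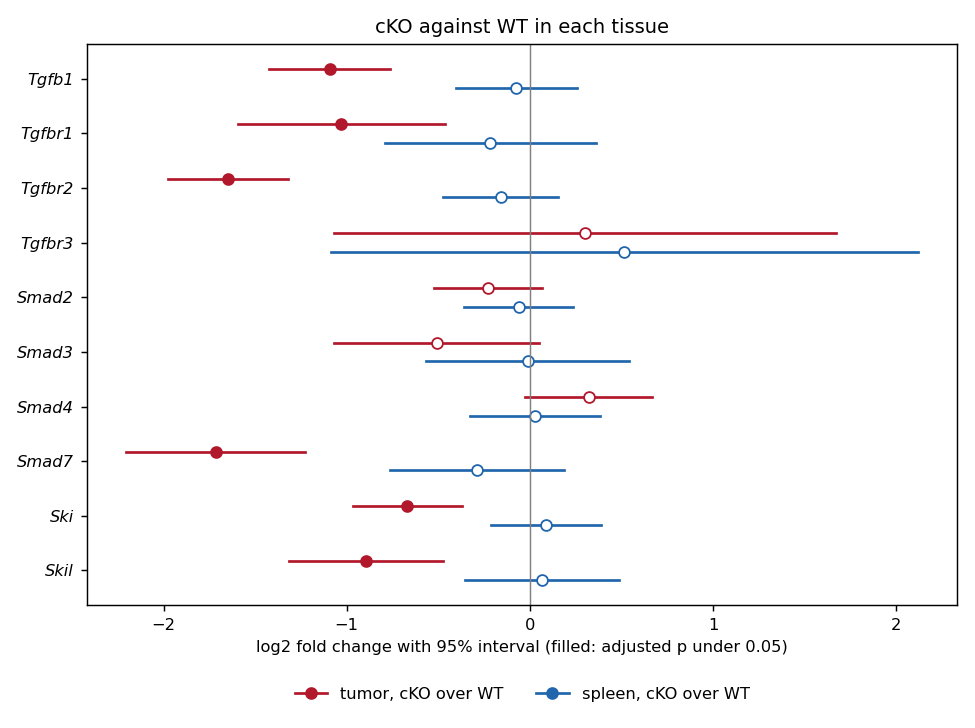
Log2 fold change of cKO over WT (x axis) for each of the 10 genes (rows), in tumor above and in spleen below within a row, with 95% intervals; filled points passed an adjusted p of 0.05. In tumor 6 genes lie below 0 with filled points, and in spleen all 10 intervals span 0.

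The cKO effects in the tissues were compared directly as tumor minus spleen. The difference was called for 5 of the 10 genes, all toward a lower level in tumor cKO, against 18.3% of all genes, 10.6% lower and 7.68% higher. It was -1.49 ± 0.209 for Tgfbr2 (edgeR adjusted p = 0.00147), -1.43 ± 0.314 for Smad7 (0.00885) and -1.02 ± 0.216 for Tgfb1 (0.00759), on the log2 scale. It was -0.76 ± 0.196 for Ski (0.0189) and -0.96 ± 0.276 for Skil (0.0293), and these calls were less stable. That of Ski was lost without spleen cKO replicate 1 (0.0537) or spleen WT replicate 3 (0.0525), and that of Skil was kept in 3 of the 12 fits without 1 library, those without tumor cKO replicate 1, tumor cKO replicate 3 or tumor WT replicate 2. Both were also lost with library totals alone.

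Tgfbr1 differed between the tissues by -0.81 ± 0.372 (edgeR adjusted p = 0.146) and Smad3 by -0.50 ± 0.363 (0.369), neither of which passed. Without tumor WT replicate 2 the Smad3 difference was -0.79 and passed (0.0162). Of the 11 macrophage markers 10 had a called difference toward a lower level in tumor cKO, and their part in the result was not tested.

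Between tumor WT and spleen WT 8 of the 10 genes were called, 6 higher (Tgfb1, Tgfbr1, Tgfbr3, Smad4, Ski and Skil) and 2 lower (Tgfbr2 and Smad3). Over all genes 62% were called, 33.9% higher and 28.1% lower, so the count is read against a large background. The groups did not overlap for 7 of the 10 genes, against 67.3% of all genes. Between tumor cKO and spleen cKO 4 of the 10 were called, with Smad4 higher and Tgfbr2, Smad3 and Smad7 lower, against 60.5% of all genes, 31.7% higher and 28.8% lower. There, 5 of the 10 did not overlap, against 70% of all genes. The median log2 fold change of the 10 genes was 0.13 in cKO and 0.60 in WT, against 0.07 in cKO and 0.12 in WT over all genes. With library totals alone the median over all genes was -0.02 in WT.

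The count in cKO was 6 without tumor cKO replicate 3 and 6 without tumor WT replicate 2, and 7 with both left out. Tgfbr3 was at the edge of the threshold there (1.64 ± 0.689, edgeR adjusted p = 0.0535), and it passed without tumor WT replicate 1 (0.0406), tumor WT replicate 2 (0.0251) or spleen cKO replicate 2 (0.042), and with the DESeq2 test (0.0305). The comparisons share groups: the libraries of each group stand in 2 of the 4 comparisons between groups. Of the 12 NK cell markers 12 were lower in tumor in both genotypes, and of the 8 B-cell markers 8. Of the 11 macrophage markers 8 were higher in tumor cKO than in spleen cKO and 11 in tumor WT than in spleen WT. Of the 9 T-cell markers 7 were higher in tumor in both genotypes. Their part in the tissue differences was not tested.

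**Figure D3:**
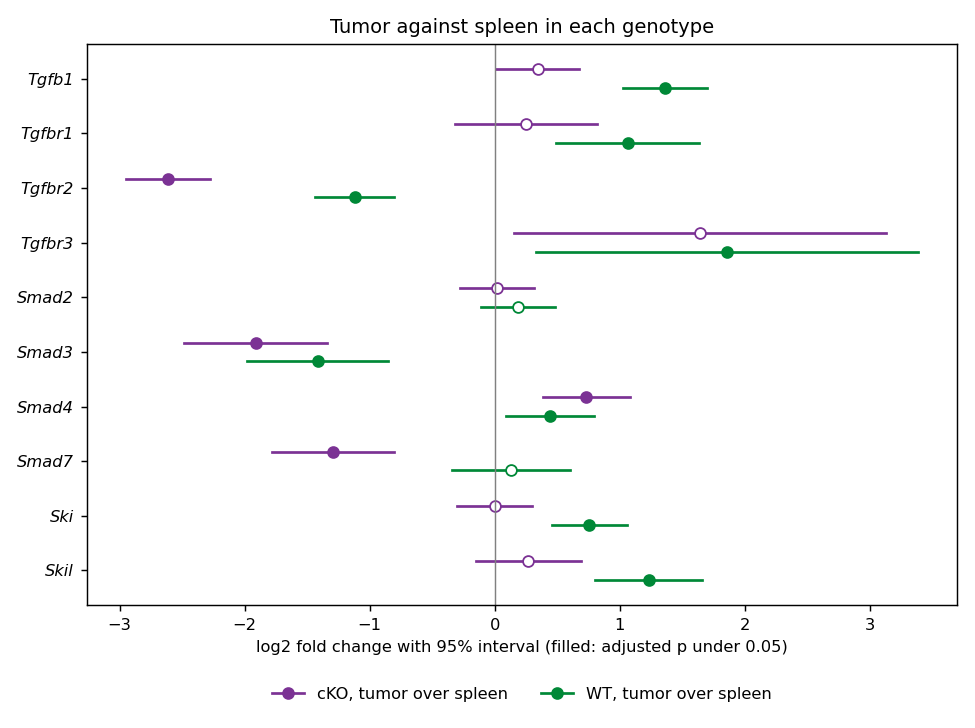
Log2 fold change of tumor over spleen (x axis) for each of the 10 genes (rows), in cKO above and in WT below within a row, with 95% intervals; filled points passed an adjusted p of 0.05. Tgfbr2 and Smad3 lie below 0 in both genotypes, and Tgfb1, Tgfbr1, Ski and Skil lie above 0 with filled points in WT and have open points in cKO.

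Between genes, levels were compared per length, as the deposited RPKM (reads per kilobase of gene length, scaled to the library total). Tgfbr2 ranked 1 of the 10 genes in spleen, with a mean of 22.0 RPKM in cKO and 24.2 RPKM in WT, ahead of Tgfb1 at 18.3 and 19.0 RPKM. In tumor Tgfb1 ranked 1, at 23.5 RPKM in cKO and 44.2 RPKM in WT, and Skil ranked 2, at 19.4 and 31.8 RPKM. Tgfbr2 ranked 7 in tumor cKO, at 3.65 RPKM, and 5 in tumor WT, at 10.1 RPKM. Tgfbr3 ranked 10 in every group, with means of 0.400 RPKM in tumor cKO and 0.0858 RPKM in spleen WT at the ends of its range.

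Ratios between the genes were formed within each library, which sets aside the scaling between libraries; they were chosen after the levels had been seen and are given as description. The RPKM ratio of the type II to the type I receptor gene, Tgfbr2 over Tgfbr1, was 1.44 to 1.78 in tumor cKO, 2.19 to 2.64 in tumor WT, 8.22 to 14.7 in spleen cKO and 8.32 to 12.5 in spleen WT. The ratio of Tgfb1 over Tgfbr2 was 6.12 to 6.74 in tumor cKO, 3.43 to 5.17 in tumor WT, 0.713 to 0.930 in spleen cKO and 0.688 to 0.857 in spleen WT. The 2 tumor groups did not overlap in either ratio, and the spleen groups did. Smad2 over Smad3 averaged 2.47 ± 0.220 in tumor cKO, 2.27 ± 0.917 in tumor WT, 0.681 ± 0.197 in spleen cKO and 0.675 ± 0.0759 in spleen WT (SD, n = 3 each). Thus Smad2 exceeded Smad3 per length in every tumor library and in no spleen library.

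**Figure D4:**
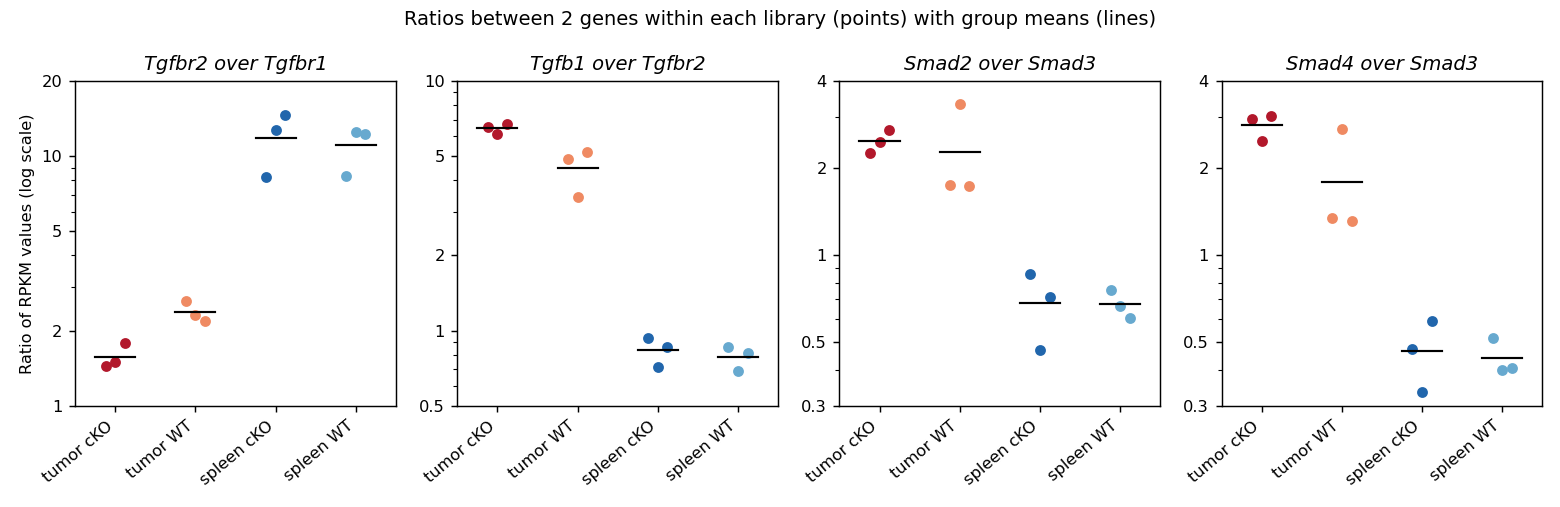
Ratio of RPKM values between 2 genes (y axis, log scale) in each library (points) of tumor cKO, tumor WT, spleen cKO and spleen WT, with group means as lines. Tgfbr2 over Tgfbr1 is above 8 in the spleen libraries and under 3 in the tumor libraries, and Tgfb1 over Tgfbr2, Smad2 over Smad3 and Smad4 over Smad3 are above 1 in tumor and under 1 in spleen.

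For each receptor gene, the genes of most similar pattern were those with the smallest root-mean-square difference of centred log2 CPM over the 12 libraries, among 10531 genes. For Tgfbr2 they were Lrrk1 (0.167), Slc25a45 (0.17) and Prex1 (0.201). Lrrk1, which encodes a leucine-rich repeat kinase, was at 6.82 to 14.8 CPM in tumor cKO, 25.6 to 38.4 CPM in tumor WT, 51.9 to 68.8 CPM in spleen cKO, with 55.6 to 70.4 CPM in spleen WT. For Tgfbr1 they were Rab7 (0.232), Gm21970 (0.236) and Fgr (0.237). Rab7, a small GTPase of late endosomes, was at 122 to 166 CPM in tumor cKO, 289 to 399 CPM in tumor WT, 116 to 135 CPM in spleen cKO, with 113 to 127 CPM in spleen WT. For Tgfbr3 they were Scarb1 (0.441), Enc1 (0.454) and Gm44085 (0.491), which were less close.

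Beyond the 10 genes, 4 lists of the pathway were counted. Their counts between tumor cKO and tumor WT stand against 21.6% lower and 16.4% higher over all genes tested. Of 20 listed genes, 15 of them tested, for ligands of the family and for storage and activation of latent TGF-beta, 10 were lower in tumor cKO than in tumor WT, 1 was higher and 4 were not called, with a median log2 fold change of -1.63. Gdf15, a stress-induced distant family member, averaged 2.78 ± 1.51 CPM in tumor cKO and 18.2 ± 7.57 CPM in tumor WT (log2 fold change -2.73 ± 0.499, edgeR adjusted p = 0.00161). Tgfb3, a further TGF-beta ligand, averaged 2.10 ± 1.74 CPM in tumor cKO and 12.01 ± 3.47 CPM in tumor WT (-2.51 ± 0.472, edgeR adjusted p = 0.00126). Ltbp3, a latent TGF-beta binding protein, fell as well (-2.50 ± 0.470, edgeR adjusted p = 0.0015). The ligand gene Gdf11 was the gene that was higher, at 12.9 ± 2.60 CPM in tumor cKO and 6.38 ± 1.59 CPM in tumor WT (1.002 ± 0.187, edgeR adjusted p = 0.00121).

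Between tumor and spleen this list was mostly higher. For all 4 lists the background over all genes is 31.7% higher and 28.8% lower in cKO, and 33.9% higher and 28.1% lower in WT. In WT 14 of the 15 were higher and 1 was lower, with a median log2 fold change of 4.28, or 2.96 with the gene without reads in spleen set at its bound, a floor of 6 counts. In cKO 8 were higher, 1 was lower and 6 were not called, with a median of 2.39, and 2 were lower without tumor cKO replicate 1. Thbs1, a matrix protein that can activate latent TGF-beta, was at 587 to 1453 CPM in tumor cKO, 1882 to 4622 CPM in tumor WT, 0.147 to 0.852 CPM in spleen cKO, with 0.151 to 0.945 CPM in spleen WT. Inhba, a subunit of activin A, was at 128 to 606 CPM in tumor cKO, 247 to 384 CPM in tumor WT and at most 0.378 CPM in a spleen library. Gdf11 went the other way in both genotypes (log2 fold change of tumor against spleen -2.63 ± 0.189 in cKO and -3.85 ± 0.200 in WT).

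Several genes of this list had almost no reads in spleen. Low counts were mostly even, as when both mates of a pair are counted, so 2 counts were taken as 1 fragment and the floor for an empty group was 3 fragments, or 6 counts, over the group. Lrrc32, which encodes GARP, the surface anchor of latent TGF-beta, had 206 reads in tumor cKO and none in spleen cKO, at least 19.6-fold higher against that floor. Gdf15 had 169 reads in tumor cKO and none in spleen cKO. It had 1423 reads in tumor WT and 2 in spleen WT, a ratio of 381 with a counting interval over fragments of 68.15 to 15070. Inhba had 21395 reads in tumor cKO and 4 in spleen cKO, a ratio of 3060 (847 to 25270), and 20542 in tumor WT and 4 in spleen WT, a ratio of 2748 (760.4 to 22690). The intervals and the floor cover counting error only.

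Of 14 listed genes, 9 of them tested, for other receptors of the family, 3 were lower in tumor cKO than in tumor WT and 6 were not called, with a median log2 fold change of -0.71. Nrp1, neuropilin 1, a co-receptor that can bind TGF-beta, averaged 13.5 ± 6.01 CPM in tumor cKO and 48.4 ± 24.2 CPM in tumor WT (-1.85 ± 0.412, edgeR adjusted p = 0.00425). Acvrl1, the type I receptor ALK1, averaged 16.7 ± 7.79 CPM in tumor cKO and 55.3 ± 14.5 CPM in tumor WT (-1.73 ± 0.356, edgeR adjusted p = 0.00243). In both genotypes 8 of the 9 were higher in tumor than in spleen and 1, the activin receptor gene Acvr1b, was lower. The median log2 fold change of tumor against spleen was 2.67 in cKO and 4.13 in WT.

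Bambi, a pseudoreceptor that dampens the pathway, was at 5.55 to 10.2 CPM in tumor cKO, 7.96 to 10.3 CPM in tumor WT and at most 0.904 CPM in spleen. Acvr1, a type I receptor of the family, averaged 14.7 ± 2.53 CPM in tumor cKO and 1.92 ± 1.68 CPM in spleen cKO (log2 fold change 2.99 ± 0.592, edgeR adjusted p = 0.000919). Eng, the endothelial co-receptor endoglin, averaged 17.3 ± 15.3 CPM in tumor WT and 0.857 ± 0.266 CPM in spleen WT (4.35 ± 0.754, edgeR adjusted p = 0.000336). The summed level of 6 endothelial markers was 57.2 to 90.5 CPM in tumor cKO and 142 to 362 CPM in tumor WT. In spleen it was 144 to 178 CPM in cKO and 159 to 180 CPM in WT. Singly, 5 of the 6 markers were higher and 1 was lower in tumor WT than in spleen WT. In tumor cKO against spleen cKO 4 were higher, 1 was lower and 1 was not called. Tek and Emcn had no reads in spleen cKO, and Emcn had none in spleen WT. The sum thus does not follow most of the markers between the tissues, and their part in these results was not tested.

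Of 27 listed genes, 24 of them tested, for other SMADs, SMAD partners and regulators, 9 were lower in tumor cKO than in tumor WT, 6 were higher and 9 were not called, with a median log2 fold change of -0.0146. The genes of the bone morphogenetic protein (BMP) branch moved apart: Smad1 averaged 1.78 ± 1.23 CPM in tumor cKO and 5.98 ± 0.733 CPM in tumor WT (-1.77 ± 0.447, edgeR adjusted p = 0.00755). Smad5 averaged 38.5 ± 5.65 CPM in tumor cKO and 17.6 ± 4.80 CPM in tumor WT (1.12 ± 0.199, edgeR adjusted p = 0.000856). Among the regulators, Strap, a WD-repeat protein that binds the receptors, averaged 417 ± 64.7 CPM in tumor cKO and 192 ± 10.6 CPM in tumor WT (1.12 ± 0.139, edgeR adjusted p = 0.000108). Usp11, a deubiquitinase that acts on TGFBR1, was higher (1.31 ± 0.189, edgeR adjusted p = 0.000246) and Nedd4l, a ubiquitin ligase of SMAD2 and SMAD3, was lower (-1.54 ± 0.361, edgeR adjusted p = 0.00548).

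Between tumor and spleen the regulators split. In cKO 9 were higher, 8 lower and 7 not called, and in WT 9 were higher, 6 lower and 9 not called. With library totals alone the balance in WT turned, to 8 higher and 10 lower. With composition factors, the shares in both genotypes lie near those over all genes. Higher in tumor WT than in spleen WT were Pmepa1, Tgif1 and Fkbp1a, which encode negative regulators of the pathway, with log2 fold changes of 6.32 ± 0.783, 2.65 ± 0.243 and 2.06 ± 0.202. Lower were Usp11, the adaptor gene Sptbn1 and the acetyltransferase gene Ep300, with -1.72 ± 0.191, -1.33 ± 0.201 and -0.99 ± 0.111. In cKO, Ldlrad4, Pmepa1 and Strap had the largest rises and Nedd4l, Smad1 and Crebbp the largest falls, with Ldlrad4 at 57.5 ± 7.41 CPM in tumor cKO and 6.59 ± 2.004 CPM in spleen cKO.

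Of 22 listed symbols, of which Ccn2 and Ctgf name 1 gene, 20 were tested. Of these genes, known to be raised by TGF-beta in various cells, 12 were lower in tumor cKO than in tumor WT, 1 was higher and 7 were not called, with a median log2 fold change of -1.33. Pmepa1, Ldlrad4 and Tgif1 are in the list of regulators as well, and Col1a1 is also a fibroblast marker. Fn1, fibronectin, averaged 1012 ± 577 CPM in tumor cKO and 6951 ± 2466 CPM in tumor WT (-2.78 ± 0.489, edgeR adjusted p = 0.0015). Tgfbi, a matrix protein named for its induction by TGF-beta, averaged 315 ± 147 CPM in tumor cKO and 1249 ± 194 CPM in tumor WT (-1.99 ± 0.407, edgeR adjusted p = 0.00324). Pmepa1, which sequesters receptor SMADs, averaged 4.12 ± 2.77 CPM in tumor cKO and 26.0 ± 6.97 CPM in tumor WT (-2.65 ± 0.587, edgeR adjusted p = 0.00412). Ldlrad4, of the same family of inhibitors, was the gene that was higher, at 57.5 ± 7.41 CPM in tumor cKO and 28.9 ± 6.05 CPM in tumor WT (0.99 ± 0.256, edgeR adjusted p = 0.00855).

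Of these targets, 14 were higher, 3 lower and 3 not called in tumor cKO against spleen cKO, and 16 were higher, 1 lower and 3 not called in tumor WT against spleen WT, where 2 were lower without tumor WT replicate 1. The median log2 fold change was 2.08 in cKO and 2.89 in WT. Cdkn1a, the cell cycle inhibitor p21, was at 70.6 to 96.2 CPM in tumor cKO, 173 to 191 CPM in tumor WT and at most 1.203 CPM in spleen. Lower in tumor cKO than in spleen cKO were Xcl1, Nrarp and Jun, with log2 fold changes of -2.04 ± 0.558, -1.19 ± 0.405 and -0.97 ± 0.259. Fibroblast markers summed to 765 to 1040 CPM in tumor cKO and 414 to 1955 CPM in tumor WT. In spleen they summed to 150 to 166 CPM in cKO and 153 to 181 CPM in WT. Singly, of the 7 tested, 3 were lower and 1 was higher in tumor cKO than in tumor WT, with a median log2 fold change of -1.52. All 7 were higher in tumor than in spleen in both genotypes. Dcn and Lum had no reads in spleen cKO, and Lum, Pdgfra and Pdgfrb had none in spleen WT, so the spleen sum does not stand for every marker. The part of these markers in the levels of the matrix genes was not tested.

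In spleen edgeR called none of the 15, 9, 24 and 20 tested genes of the 4 lists between cKO and WT. An unadjusted p under 0.05 was seen for 1 of the 20 targets and for none of the others, the DESeq2 test called 1 target, and a fit with no filter on low counts called 3. The target with the low unadjusted p was Klf10, a zinc finger gene induced early by TGF-beta, named after its values were seen (log2 fold change 0.72 ± 0.167, edgeR adjusted p = 0.488). The difference of the cKO effects, tumor minus spleen, was called for 6 of the 15 ligand and activation genes (1 higher, 5 lower), 1 of the 9 receptor genes (lower), 11 of the 24 regulators (5 higher, 6 lower) and 8 of the 20 targets (1 higher, 7 lower). These counts stand against 18.3% of all genes called for the difference, 10.6% lower and 7.68% higher. Pmepa1 had -3.92 ± 1.06 (edgeR adjusted p = 0.0245), Fn1 had -3.58 ± 0.717 (0.00848) and Acvrl1 had -2.10 ± 0.615 (0.0328). Furin, the protease that cleaves the TGF-beta precursor, had -1.57 ± 0.384 (0.0161). Strap had 1.15 ± 0.196 (0.00338), Usp11 1.42 ± 0.264 (0.00454) and Gdf11 1.22 ± 0.257 (0.00737). The differences of Pmepa1 and Acvrl1 rest on few reads in spleen. Pmepa1 had 30 reads over spleen cKO and 12 over spleen WT, and Acvrl1 had 54 and 40. For Pmepa1 the difference joins a log2 fold change of -2.65 in tumor with an uncertain 1.27 ± 0.901 in spleen.

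These list counts of the difference depended on the scaling and on single libraries, in fits that were added for the lists after seeing the data. With library totals alone, the lower calls numbered 2 of the ligand and activation genes, in place of 5, 1 of the receptors, as before, 1 of the regulators, in place of 6, and 5 of the targets, in place of 7. The higher calls stayed at 1, 0, 5 and 1. Without 1 library, the lower calls numbered 1 to 4 of the ligand and activation genes, 0 to 1 of the receptors, 1 to 5 of the regulators and 4 to 8 of the targets. Those of the ligand and activation genes fell by more than 1.5 times without any one library other than tumor cKO replicate 1 or 2 or tumor WT replicate 1. The receptor call was lost without spleen cKO replicate 1, 2 or 3 or spleen WT replicate 2. Those of the regulators fell by that much without any one library other than tumor cKO replicate 3 or tumor WT replicate 2, and those of the targets without spleen cKO replicate 3. Of the higher calls, those of the regulators fell to 3, and that of the targets was lost, without any one of tumor cKO replicate 3, tumor WT replicate 1, spleen cKO replicate 2 or 3 or spleen WT replicate 2 or 3.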

How the data were processed

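TRIzol was used to extract total RNA and a NovaSeq instrument to sequence it, per the labels' protocols. Reads were mapped to mm10 with TopHat2 2.0.6, per the submitters' processing notes. The sources used here name no counting program or strand setting, so reads of a gene and of an antisense partner cannot be told apart. The authors deposited whole-number counts for 33100 gene rows and a table of RPKM, which equals the counts per kilobase scaled to the library total within a relative tolerance of 2e-04 for 100% of nonzero values. Even numbers made up 68.8% to 73.3% of the counts from 1 to 49 per library, as when both mates of a pair are counted, so counting noise exceeds that of the counts themselves. Totals ran from 9542329 to 37118494 counts.

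Counts were analysed with edgeR 4.0.16 in R 4.3.3. filterByExpr over the 4 groups left 16831 genes, composition was scaled by TMM, and a robust quasi-likelihood model gave each group a mean, with all 12 libraries in 1 fit (8 residual degrees of freedom). Genes passed the two-sided F-test where p, adjusted by Benjamini-Hochberg across the 16831 genes, was under 0.05. Adjusted p-values without a tool name are from this edgeR test. CPM values use TMM-scaled totals. The SE of a fold change was derived from the test, as the absolute log2 fold change over the square root of its F statistic. The 95% intervals are built from that SE with the t distribution. Both are unreliable for genes with almost no reads in a group. Levels between genes use the deposited RPKM. The script was tested on data simulated with the same spread for every gene and with changes in tumor cKO alone. That setting lacks the composition differences between groups and the libraries that stood apart here. Positions come from the count table (GRCm38), and the promoters are from RefSeq.

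Alternatives were DESeq2 1.42.0 (size factors, and its test), library totals alone, no filter on low counts, limma 3.58.1 on log2(RPKM + 1) and log2(RPKM + 0.1), 2 groups only, the replicate number as a block, and fits without 1 or 2 libraries. The 10 genes and all lists, which hold 83 entries for the pathway, of which 3 symbols had no row (1 of them a second symbol of a tested gene), were chosen with earlier results of these data known. Of each pathway list and comparison, up to 3 genes with the largest rise and up to 3 with the largest fall were named among called genes whose log2 CPM averaged 2 or more and whose groups did not overlap. Some of these named genes are given without values, and 1 is not reported here.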

Additional observations from a re-analysis of the deposited data

Results flagged for a closer look

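For 5 of the 10 genes the effect of the knockout differed between the tissues by a direct test of the difference, tumor minus spleen, in edgeR. Over all genes tested, 18.3% were called for this difference, 10.6% lower and 7.68% higher. Tgfbr2 differed by -1.489 on the log2 scale, from an effect of -1.65 in tumor and -0.16 in spleen. Smad7 differed by -1.428, from -1.72 in tumor and -0.29 in spleen. Tgfb1 differed by -1.018, from -1.09 in tumor and -0.07 in spleen. Ski differed by -0.7557, from -0.67 in tumor and 0.09 in spleen, and Skil by -0.9615, from -0.90 in tumor and 0.07 in spleen. The calls of Ski and Skil were less stable. In the 12 fits without 1 library, that of Ski was kept in 10 and that of Skil in 3. Both were lost with library totals alone (edgeR adjusted p = 0.0555 for Ski and 0.0565 for Skil). In all 5 genes the 3 tumor cKO libraries lay below the 3 tumor WT libraries, and the macrophage markers, of which 10 of 11 had a called difference in the same direction, moved with them. Their part in these differences was not tested.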

How the results depend on the processing

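The 6 genes called lower in tumor cKO than in tumor WT kept that call in every alternative, except Tgfbr1 with tumor WT replicate 2 and tumor cKO replicate 3 left out (adjusted p = 0.0543), and the count of called genes was 6 to 7 without 1 library. In spleen the count was 0 throughout, also 0 to 0 without 1 library. Without 1 library the count was 6 to 8 for tumor WT against spleen WT, 4 to 6 for tumor cKO against spleen cKO and 3 to 6 for the difference of the cKO effects. Over all genes the calls in these 3 comparisons moved as well, to 9586 to 10705 (10437 with all libraries), 9238 to 10933 (10183) and 2141 to 4059 (3072). Between the tumor groups they numbered 4410 to 6723 (6399). With tumor WT replicate 2 and tumor cKO replicate 3 left out together, the count of the 10 genes was 7 for tumor cKO against spleen cKO, in place of 4. For the difference of the cKO effects it was 3, in place of 5, with library totals alone and with limma on log2(RPKM + 1) or log2(RPKM + 0.1), which rest on library totals too; the genes lost were Ski and Skil. Without composition factors the share of higher calls over all genes moved to 58% for this difference, in place of 42.1%, and its median over all genes was 0.06 in place of -0.10. No fold change of the 10 genes that was called changed sign. Of the single-gene values under the alternatives, 980 stayed on their side of the threshold, 28 passed it newly and 32 fell short of it.

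Over all genes in spleen, where edgeR called 5, the DESeq2 test called 40, no filter 230, limma 11 and 10 with the larger and smaller pseudocount, a fit of the 2 spleen groups 31, the fit without both libraries above 34, and fits without 1 library 0 to 8. The same replicate numbers occur in each group, and deviations of same-numbered libraries correlated at -0.0884 to 0.111. Such correlations cannot settle whether same-numbered libraries share an animal or a batch, because deviations particular to a tissue can hide it. With the replicate number as a block, 6, 0, 8, 6 and 5 of the 10 genes were called in tumor cKO against tumor WT, spleen cKO against spleen WT, tumor WT against spleen WT, tumor cKO against spleen cKO and the difference. The block added Tgfb1 (adjusted p = 0.046) and Tgfbr3 (0.0284) to the calls of tumor cKO against spleen cKO, and over all genes in spleen it called 2. Depth limits Tgfbr3, with 4 to 142 reads per library, and not the other 9 genes to that degree.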
